A study of Mus musculus with 577 samples.

Results

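RNA counts of 7 genes tied to the 2-cell-like state of mouse embryonic stem cells (mESCs) were taken from every gene count table of the series. They were chosen by symbol as Zscan4c, Zscan4d, Zscan4f, Tcstv1, Tcstv3, Dppa2 and Dppa4, which are 7 of 22060 protein-coding genes, and all 7 had a row in each table. The study isolated single cells by laser-capture microdissection (LCM) from stained sections, lysed them with a detergent that was then quenched (DRaqL), and amplified their cDNA for 3′-end sequencing. Of 577 libraries, 562 had 3′ counts per gene and 15 had counts per exon.

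The mESCs were cultured in 2iLIF, a medium with the inhibitors CHIR99021 and PD0325901 and the cytokine LIF, and 45 were labelled fresh (dissociated and picked) and 36 were labelled LCM (cut from ethanol-fixed, cresyl violet-stained sections of frozen cell blocks of the same culture). Oocytes came from ovaries of 8-week-old female mice, and were grouped by the follicle in which they lay, as primary or as secondary to antral. They were amplified by DRaqL-SC3-seq (14 primary and 30 later oocytes), SMART-Seq v4 (7 and 11), DRaqL-SMART-Seq v4 (6 and 9), all from alcohol-fixed sections, or by DRaqL-Protease-Smart-seq2 from sections fixed in formalin for 24 h (5 and 7). From 1 proestrus mouse, 8 secondary to antral oocytes were cut from 1 ovary and amplified by DRaqL-Smart-seq2, and 14 grown oocytes were dissociated from the other ovary and amplified by Smart-seq2. The dissociated oocytes and granulosa cells of this mouse were isolated in medium with dibutyryl-cAMP, an analog of cAMP. A further 16 libraries were serial sections of 8 secondary to antral oocytes. The 330 single granulosa cells were neighboring or non-neighboring to an oocyte in 161 and 169 libraries. Most were cut from sections and amplified by DRaqL-SC3-seq, SMART-Seq v4, DRaqL-SMART-Seq v4, LCM-seq or DRaqL-Smart-seq2. From formalin-fixed sections, 12 and 12 were amplified by DRaqL-Protease-Smart-seq2. From the proestrus mouse, 35 and 35 were cut for DRaqL-Smart-seq2, and 14 and 21 were dissociated for Smart-seq2. Their totals ran from 12748 to 6749468 reads, and they were pooled over these preparations. The labels name no mouse or culture for single cells, so that each group counted as 1 sample. No test between groups was therefore made, and the SDs below are over cells.

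A small share of mESCs in culture enters a transient state with transcripts of the 2-cell embryo, in which the mouse embryonic genome is first widely transcribed. Zscan4 genes encode zinc finger proteins with a SCAN domain, known from the late 2-cell embryo and tied to telomere maintenance in mESCs. Tcstv1 and Tcstv3 belong to a gene family named for 2-cell-stage transcripts, whereas Dppa2 and Dppa4 encode SAP-domain chromatin proteins that form a pair and act upstream of the 2-cell program through Dux.

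The 3 Zscan4 genes lay in 1 cluster on chromosome 7 of GRCm38, with Zscan4c (ENSMUSG00000054272) at chr7:11005722-11010547 on the plus strand, Zscan4d (ENSMUSG00000090714) at chr7:11161374-11166182 on the minus strand and Zscan4f (ENSMUSG00000070828) at chr7:11397915-11402741 on the plus strand. Tcstv1 (ENSMUSG00000096284) lay at chr13:119893388-119894785 on the minus strand and Tcstv3 (ENSMUSG00000095821) at chr13:120317567-120318076 on the plus strand. Dppa4 (ENSMUSG00000058550), at chr16:48283735-48294292, and Dppa2 (ENSMUSG00000072419), at chr16:48310477-48319723, were neighbors on the plus strand of chromosome 16. These spans cover all exons that the deposited exon table lists for each gene.

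The promoter windows of the Zscan4 genes are shown because they were nearly identical, and so were the transcripts that the reads had to be told apart by. They are RefSeq sequences of GRCm38.p6, from 250 bases before to 50 bases after the annotated start, written along the gene's strand. Zscan4c lies at chr7:11005495-11005794, Zscan4d at chr7:11166099-11166398 and Zscan4f at chr7:11397665-11397964. Capitals mark bases that differ from Zscan4c in an alignment without gaps, and in Zscan4c the bases at which either of the others differs.
Zscan4c: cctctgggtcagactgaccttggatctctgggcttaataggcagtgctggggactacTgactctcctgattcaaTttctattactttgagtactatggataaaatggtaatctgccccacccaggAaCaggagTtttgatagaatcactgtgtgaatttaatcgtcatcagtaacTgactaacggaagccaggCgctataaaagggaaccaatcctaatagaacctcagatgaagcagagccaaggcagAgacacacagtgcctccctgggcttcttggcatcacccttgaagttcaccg
Zscan4d: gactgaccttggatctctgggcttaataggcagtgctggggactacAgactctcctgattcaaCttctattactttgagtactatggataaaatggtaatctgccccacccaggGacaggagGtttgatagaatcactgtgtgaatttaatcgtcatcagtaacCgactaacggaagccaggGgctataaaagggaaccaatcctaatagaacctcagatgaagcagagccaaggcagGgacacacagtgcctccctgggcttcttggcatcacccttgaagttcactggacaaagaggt
Zscan4f: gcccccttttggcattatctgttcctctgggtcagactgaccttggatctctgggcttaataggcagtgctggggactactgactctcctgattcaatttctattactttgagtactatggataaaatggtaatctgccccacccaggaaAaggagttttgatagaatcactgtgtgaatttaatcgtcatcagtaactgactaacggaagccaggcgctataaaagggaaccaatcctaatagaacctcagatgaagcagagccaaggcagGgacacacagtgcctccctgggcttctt
The window of Zscan4c matched that of Zscan4d at 280 of 287 aligned bases (97.6%) and that of Zscan4f at 275 of 277 (99.3%), and Zscan4d and Zscan4f matched at 97.4%. The letters TATAAA, searched on both strands (TTTATA on the other), occurred once in each window, with the first base 54, 65 and 31 bases before the annotated start of Zscan4c, Zscan4d and Zscan4f. Of 32851 promoter windows, 13.6% held these letters on either strand. Tcstv1, Tcstv3, Dppa2 and Dppa4 had no entry.

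The likeness extended over the transcripts, and this bears on how far each count belongs to 1 gene. The longest GENCODE transcripts of Zscan4c and Zscan4d were 97.1% identical, Zscan4c and Zscan4f 97.0%, and Tcstv1 and Tcstv3 92.1% over 656 aligned bases. Among windows of 50 bases in the last 500 bases of the transcript, 68.3% for Zscan4c and 51.4% for Zscan4d were also found in the transcript of another gene, as were 19.1% for Tcstv1 and 17.3% for Tcstv3, and 0% for Dppa2 and Dppa4. For Zscan4f all such windows were shared, but its annotated transcript ends before the last exon of the deposited exon table, and the end that was sequenced was not compared. The counts of single Zscan4 genes are therefore uncertain, and the sum of Zscan4c, Zscan4d and Zscan4f is given beside them.

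Library totals over protein-coding genes ranged from 204699 to 2770637 reads in fresh mESCs (median 2068207) and from 379431 to 3440997 in LCM mESCs (median 1951462), with medians of 10644 and 9845.5 genes detectable (above 0 reads). Of 7 pluripotency markers, 6 were detectable in all 81 mESCs. The exception was Pou5f1, the gene of the pluripotency factor OCT4, with reads in 65 of the 81 and a mean level of 2.45 in fresh cells. Levels are log2 (RPM+1), in which RPM is reads scaled to a total of 1000000 on protein-coding genes. Fresh libraries 25 and 33 were more alike than any other pair (r = 0.98 across genes, next pair 0.89), although they differed by more than counting noise (chi-square per degree of freedom 7.36). They were counted separately. The labels fresh and LCM are those of the 3′ libraries. All 10 exon libraries of mESCs were most alike a 3′ library of the other label. The cell numbers of the matched fresh libraries were nevertheless those of the exon libraries labelled fresh (described below the mESC results). Each difference between fresh and LCM cells would have the opposite sign if the 3′ labels were exchanged.

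Transcripts of Zscan4 were nearly absent from the mESCs. Only 2 of 81 cells had any Zscan4 read (2.47%, 95% Clopper-Pearson interval 0.30 to 8.64%). One was LCM cell 12, with 38 reads of Zscan4c, 17 of Zscan4d and 45 of Zscan4f among 2446074 reads, or 40.9 RPM in sum (5.39 in log2 (RPM+1)). The other was fresh cell 10, with 1 read each of Zscan4c and Zscan4f. No cell passed a level of 6 for the summed genes, where 0 of 81 cells allows a share of up to 3.70% by a floor of 3 cells (4.45% as the upper Clopper-Pearson bound), and 1 cell passed a level of 4.

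Tcstv1 and Tcstv3 had no read in any of the 81 mESCs. Their floor, 3 counts over 159336172 reads of all mESCs, corresponds to 0.0188 RPM. LCM cell 12, which passed only the lower of the levels above for the summed Zscan4 genes, was thus listed at 0 for both Tcstv genes. It had 1 read of Dppa2. Its Dppa4 count was 241 reads (98.5 RPM), within the range of the other cells. Its pluripotency markers summed to 2024 RPM, where the medians were 1889 RPM in fresh and 1885 RPM in LCM cells.

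Of a list of 33 other genes tied to the 2-cell stage, 29 were in the tables and 10 had reads in LCM cell 12, where 56.1% of all 18992 genes did. At the highest RPM of all 81 mESCs were 4 of the 29, and 1.11% of all genes (211). Sp110, a gene of the speckled protein family, had 38 reads there and 0 in the other 80 cells. Gm20767, a relative of the Tcstv genes by shared transcript sequence, had 19 reads, against at most 1 read in any other mESC. Gm4340 had 12 reads (at most 1 elsewhere), and Zscan4b, of the same Zscan4 family, had 10 (at most 2 elsewhere). The remaining 6 were Gm2016, Gm5039, Gm5662 and Gm8300 with 1 or 2 reads each, and Gm4027 and Gm8994, which had reads in all 81 mESCs. Zfp352, Usp17la and Tdpoz1 to Tdpoz4, also genes of the 2-cell embryo, had 0 reads in cell 12. Of the 8 oocyte markers, 3 had reads in LCM cell 12, at 31.9 RPM in sum, nearly all from Zp3 (76 reads), which was detectable in 68 of 81 mESCs. Zp2, Gdf9, Bmp15, H1foo and Nlrp5 were at 0 in it. The part of RNA from other cells in its profile was not tested.

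**Figure D1:**
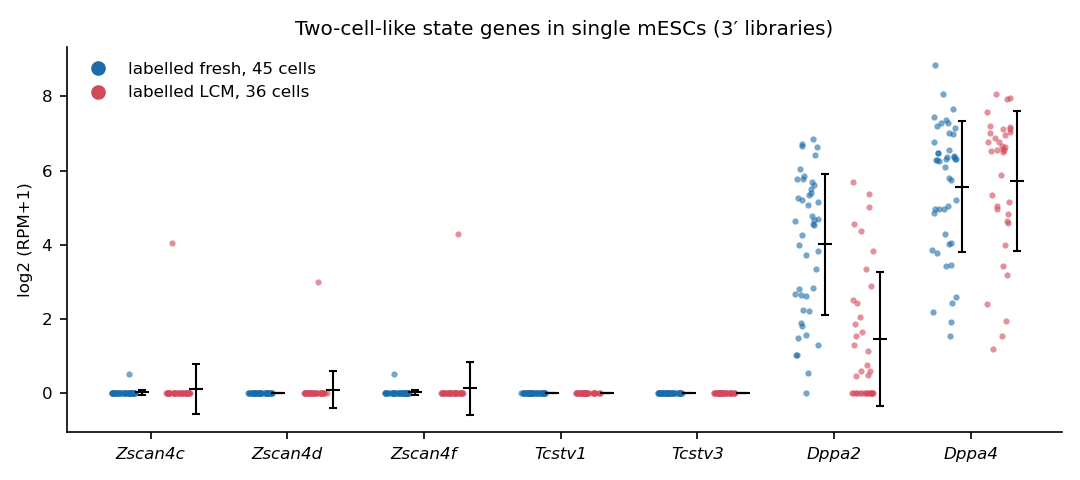
Levels of the 7 genes in single mESCs, in log2 (RPM+1), with 1 point for each of 45 cells labelled fresh (blue) and 36 labelled LCM (red), and bars for the mean ± SD over cells. The Zscan4 genes stand above 2 in LCM cell 12 only, Tcstv1 and Tcstv3 are at 0 throughout, and Dppa2 is lower in LCM cells.

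The genes whose levels were most like the Zscan4 sum over the 81 mESCs were sought among 11865 genes above 4 in at least 2 cells. By Pearson's r they were Cd1d2 (0.80), Acta1 (0.71), Wisp1 (0.67), Capn3 (0.66), Cxcl16 (0.65), Stox1 (0.65), Olfml1 (0.65), Klhdc7a (0.65), Tmod4 (0.64) and Krt18 (0.63). Without LCM cell 12, r ranged from -0.05 for Stox1 to 0.37 for Klhdc7a. Only 1 fresh cell then has any Zscan4 read. These values thus reflect the level in that fresh cell and cannot show whether the genes go with Zscan4. Krt18, a keratin of simple epithelia, had 178 reads in LCM cell 12 and reads in 12 mESCs in all. Acta1, skeletal muscle actin, had 90 and was detectable in 4. These correlations share 1 cell and are a description of it.

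Dppa2 was lower in the mESCs labelled LCM than in those labelled fresh, whereas the means of Dppa4 were close. In fresh cells Dppa2 ranged from 0 to 113.6 RPM with a median of 22.5, and it was detectable in 44 of 45 cells (97.8%, interval 88.2 to 99.9%). In LCM cells it ranged from 0 to 50.3 RPM with a median of 0.512, and it was detectable in 21 of 36 (58.3%, interval 40.8 to 74.5%). The ranges of the groups overlapped, and the low cells of both were at 0. The mean level was 4.01 ± 1.90 (SD, n = 45) and 1.46 ± 1.80 (SD, n = 36), a difference of -2.56, the third lowest of 18992 genes with reads in at least 1 mESC. Across these genes, 5.12% were lower in LCM cells by over 1 and 0.442% were higher by over 1. By summed counts, 2661 reads in fresh cells and 383 in LCM cells, Dppa2 was 5.50-fold higher in fresh cells.

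Dppa4, by contrast, was detectable in all 81 cells. It ranged from 1.90 to 464 RPM (median 76.8) in fresh cells and from 1.27 to 265 RPM (median 93.2) in LCM cells, so that the ranges overlapped almost completely. Its mean level was 5.57 ± 1.76 (SD, n = 45) and 5.71 ± 1.88 (SD, n = 36), a difference of 0.15, less than the spread over cells. The Zscan4 genes differed by 0.08 to 0.11 through LCM cell 12 alone, and Tcstv1 and Tcstv3 by 0.

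The pair of proteins did not have matching transcripts over cells. The correlation of Dppa2 with Dppa4 was -0.03 over 45 fresh cells and -0.25 over 36 LCM cells. Dppa2 correlated with the number of genes detectable at r = 0.38 over the 81 cells, and at 0.15 and 0.04 within fresh and LCM cells. The number of genes detectable was lower in LCM cells, and its part in the lower Dppa2 was not tested. Fixation, staining, sectioning and LCM cannot be told apart here, and fewer molecules per cell and less efficient recovery of Dppa2 cannot be told apart either.

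**Figure D2:**
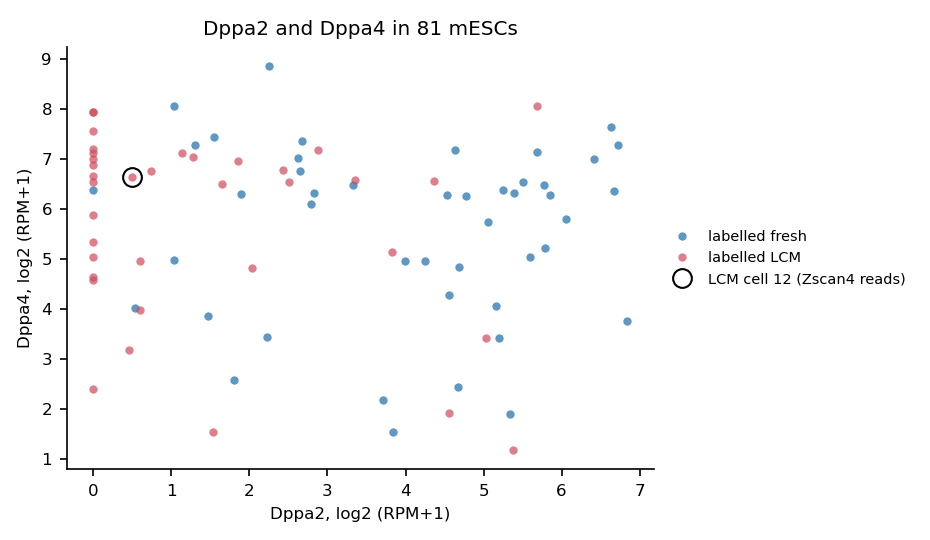
Dppa2 (horizontal) against Dppa4 (vertical) in 81 mESCs, both in log2 (RPM+1), with 1 point a cell, fresh in blue and LCM in red, and LCM cell 12 ringed. Dppa2 is at 0 in 15 LCM cells and 1 fresh cell, and Dppa4 is above 0 in every cell.

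The genes most like Dppa2 over the 81 mESCs were Katnal1 (r = 0.54), BC024978 (0.52), Msantd4 (0.50), Med30 (0.49), a Mediator subunit, and Eef1a1 (0.47), a translation elongation factor. All of these had lower means in LCM than in fresh cells, as Dppa2 did. BC024978 was at 3.52 in fresh and 1.03 in LCM cells, and Med30 at 3.31 and 1.17. Both groups were pooled for r, so that the ranking favors genes that share the group difference, and r within each group was not computed. The genes most like Dppa4 reached lower values, with Tab2 at 0.40, Scarb1 at 0.37, Hes6 at 0.37, Ppp4c at 0.36 and Slc4a1ap at 0.35.

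Regulators of the 2-cell program were measured beside its genes. Besides Dppa2 and Dppa4, the activators Nelfa and Dppa3 were in the tables, with differences of -0.77 and -0.64 between LCM and fresh cells, within 1 SD of either group. Of 12 repressors, none differed by over 1, and the differences ran from -0.37 for Ehmt2, a histone H3 lysine 9 methyltransferase, to 0.66 for Dnmt1, the maintenance DNA methyltransferase. Their median was 0.01, against -0.05 over all genes. In LCM cell 12, the 12 repressors ran from low to high among the LCM cells. Chaf1b, a subunit of the CAF-1 histone chaperone, was at 4.42, with 4 of the 36 LCM cells at or below it, as for Pcgf6. Chaf1a, another CAF-1 subunit, was at 5.35 with 12 of 36 at or below it. The co-repressor gene Trim28 was at 10.1, in the middle of the LCM cells. At or below cell 12 were 7 LCM cells for Rif1, 17 for Ncl, 22 for Ehmt2 and 24 for Kdm1a. They were 25 for Dnmt1, 27 for Zmym2, 28 for Daxx and 32 for Atrx. The activator Nelfa was at 2.75 in cell 12, with 10 of 36 at or below it, and Dppa3 was at 0, with 5 of 36.

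The exon libraries with Y-shaped adapters gave no Zscan4 or Tcstv read in any of 10 mESCs, at totals of 6200968 to 16296631 reads. Their labels went against their profiles. Each of the 5 labelled fresh was most alike a 3′ library labelled LCM, and each of the 5 labelled LCM was most alike one labelled fresh (r = 0.89 to 0.91, next best 0.77 to 0.83), whereas 5 of 5 oocyte libraries matched oocytes. The matched 3′ libraries labelled fresh were cells 2, 5, 6, 8 and 10, and the exon libraries labelled fresh bore these same numbers. The matched 3′ libraries labelled LCM were cells 1, 2, 4, 5 and 9, and the exon libraries labelled LCM were numbered 1, 2, 4, 6 and 9. By number, the matches thus went with the 3′ labels, except for 5 in place of 6. The exon libraries are named by the 3′ library that each was most alike. The directions above take the labels of the 3′ libraries as given.

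Dppa2 and Dppa4 were found in the matched pairs. Dppa2 had 0, 41, 15, 0 and 3 exon reads in those alike LCM cells 9, 4, 1, 5 and 2, where the 3′ libraries had 40, 6, 9, 1 and 0 reads. It had 4, 178, 285, 76 and 2 exon reads in those alike fresh cells 8, 10, 5, 6 and 2, where the 3′ libraries had 0, 154, 198, 74 and 1. The high and low cells among these fresh cells were thus the same in both libraries. The highest of these matched LCM cells by 3′ reads had no exon read. Dppa4 had exon reads in all 10, from 39 to 591. Reads over exon junctions were listed for Dppa4 in 9 of 10 mESCs, at most 74 in 1 cell, and for Dppa2 in 3, at most 14.

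In oocytes, the mean levels of all 7 genes were higher in secondary to antral than in primary follicles under 3 protocols, and those of 6 under the fourth, formalin fixation, where Dppa2 differed by 0.06 with no settled sign. With DRaqL-SC3-seq, Tcstv1 had at most 4 reads in any of 14 primary oocytes (0 to 3.07 RPM, median 0.651), whereas it ranged from 0 to 136 RPM with a median of 40.5 in the 30 later ones. Of the later oocytes, 25 were above the highest primary oocyte and 3 had no read. Tcstv3 was detectable in 2 of 14 primary and 24 of 30 later oocytes, with a highest level of 1.15 and 47.8 RPM.

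Dppa2 and Dppa4 had the same order. Dppa2 was detectable in 6 of 14 primary oocytes (highest 9.42 RPM) and in 26 of 30 later ones (median 46.8 RPM, highest 118). Dppa4 was detectable in 3 of 14 (highest 1.37 RPM) and 23 of 30 (median 3.33, highest 17.1 RPM). The groups overlapped at the low end, since 4 later oocytes had no Dppa2 read and 7 no Dppa4 read.

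The Zscan4 genes were detectable in about as many later oocytes as not. Zscan4c was detectable in 0 of 14 primary and 15 of 30 later oocytes, Zscan4d in 1 and 18, and Zscan4f in 0 and 14. Their sum ranged from 0 to 31.6 RPM in later oocytes, with a median of 1.28, and 11 of these had no Zscan4 read. LCM mESC 12, at 40.9 RPM, was above all 30, although the highest dissociated grown oocyte by Smart-seq2 was at 44.1 RPM. By summed counts, Zscan4c was at least 14.3-fold and Zscan4f at least 15.7-fold higher in later oocytes, against a floor of 3 counts over the primary oocytes.

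In mean log2 (RPM+1), the later oocytes were above the primary ones by 1.03 for Zscan4c, 1.21 for Zscan4d, 1.07 for Zscan4f, 3.84 for Tcstv1, 2.76 for Tcstv3, 3.41 for Dppa2 and 1.76 for Dppa4 with DRaqL-SC3-seq. All 7 were higher by over 1, as were 21.2% of 20696 genes, and 9.88% were lower by over 1. With SMART-Seq v4, 5 of the 7 were higher by over 1 (24.8% of all genes higher, 11.9% lower), with DRaqL-SMART-Seq v4 all 7 (26.3% and 16.6%), and in formalin-fixed sections 4 (20.9% and 19%). The formalin count was 2 with TMM scaling, where Zscan4d was at 0.99 and Dppa4 at 0.90, and 3 without primary oocyte 2, 3 or 4, where Dppa4 was at 0.92, 0.78 and 0.78. The medians of the 7 differences were 1.76, 1.39, 2.25 and 1.00 under the 4 protocols, where the medians of all genes were 0.04, 0.19, 0.12 and -0.01.

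The Tcstv genes stood farthest apart by stage under the kit-based protocols. Tcstv1 differed by 6.38 with SMART-Seq v4 and by 6.45 with DRaqL-SMART-Seq v4, with all 11 and all 9 later oocytes above the highest primary oocyte. Tcstv3 had no read in the 7 and 6 primary oocytes of these protocols, and medians of 93 and 50.9 RPM in the later ones. In formalin-fixed sections, Tcstv1 was at most 76.5 RPM in 7 later oocytes and at most 10.6 RPM in 5 primary ones, and all 7 were above the highest primary oocyte.

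Dppa2 was the exception in formalin-fixed sections. It was detectable in all 5 primary oocytes, between 2.16 and 75.4 RPM, and in 5 of 7 later oocytes, at most 70.3 RPM, with mean levels of 4.03 ± 1.66 (SD, n = 5) and 4.09 ± 2.81 (SD, n = 7). The difference of 0.06 was far below the spread. It was -0.01 with TMM scaling and -0.76 at a pseudocount of 0.1, and ranged from -0.53 without primary oocyte 1 to 0.62 without primary oocyte 4, so that its sign is not settled. Primary oocytes carried more granulosa marker RNA than later ones in every protocol, with medians of 408 and 82.7 RPM by DRaqL-SC3-seq, and less oocyte marker RNA (11360 and 27780 RPM), and the part of either in the stage differences was not tested.

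**Figure D3:**
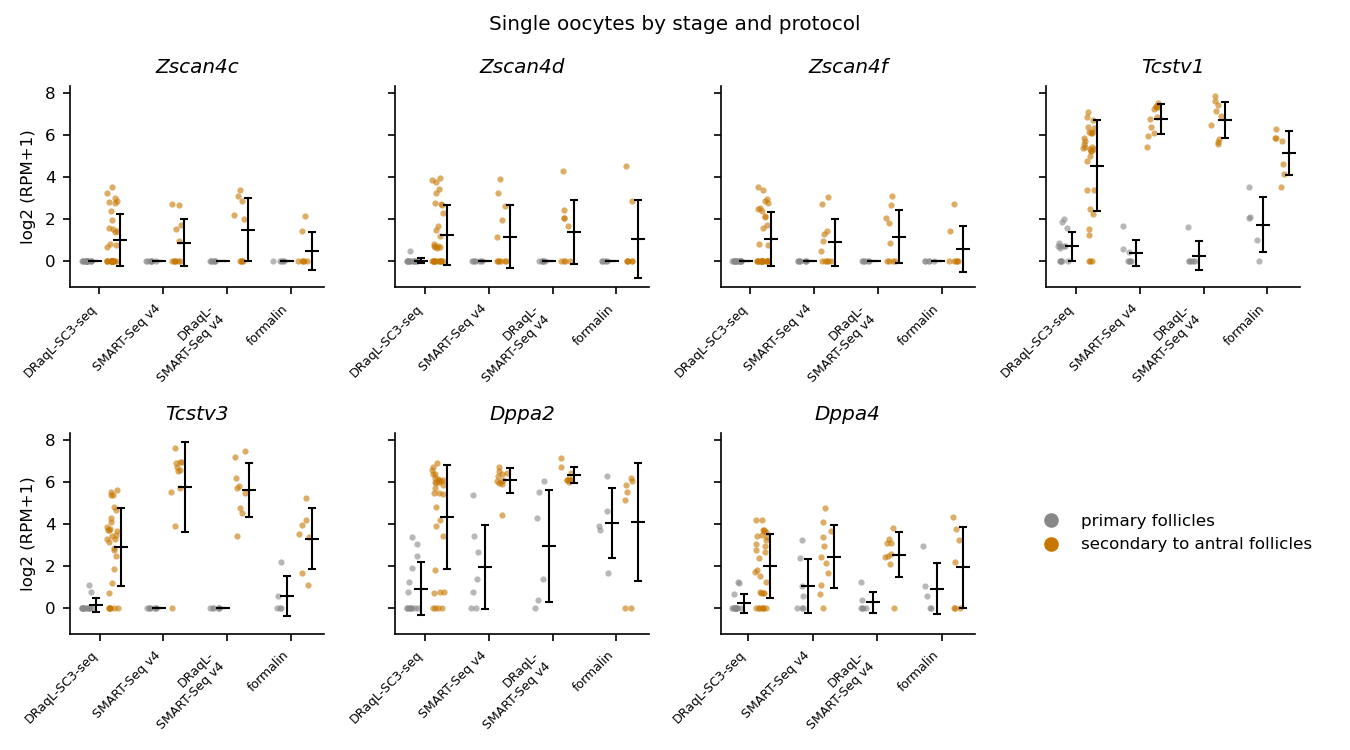
Levels of the 7 genes in single oocytes, in log2 (RPM+1), by protocol, with 1 point an oocyte of primary (grey) or secondary to antral (orange) follicles and bars for the mean ± SD over oocytes. Later oocytes are above primary ones in mean, by 6.38 and 6.45 for Tcstv1 with the SMART-Seq v4 kit, except for Dppa2 in formalin-fixed sections, where the difference of 0.06 changes sign with TMM scaling (-0.01).

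The same-mouse experiment gave the highest mean oocyte levels of Zscan4d, Tcstv1, Dppa2 and Dppa4, in the dissociated cells. In the 14 dissociated grown oocytes, Tcstv1 was between 102.8 and 279 RPM (median 167), Dppa2 between 60.1 and 166 RPM (median 88.1) and Dppa4 between 4.67 and 29 RPM (median 16.6), each in all cells. In the 8 oocytes cut from the other ovary, the ranges were 1.74 to 190 RPM (median 96.9), 0 to 91.8 RPM (median 52.2) and 0 to 8.61 RPM (median 2.63). All ranges overlapped, with the cut oocytes at the low end. The Zscan4 sum was above 0 in 14 of 14 dissociated and 7 of 8 cut oocytes, with medians of 8.13 and 3.76 RPM. Stage, ovary, LCM, dibutyryl-cAMP and protocol cannot be told apart in this pair.

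Over the 13 groups of mESCs and oocytes, ordered by mean level, most neighbors in the order differed by less than the larger of their SDs. The exceptions among 12 neighbor pairs of each gene were 1 each for Tcstv1, Tcstv3, Dppa2 and Dppa4, and 0 for each Zscan4 gene. For Tcstv1 and Tcstv3 the break lay between all primary oocytes and mESCs on the low side and all later oocytes on the high side, at gaps of 2.80 and 2.34. For Dppa2 it lay below the later oocytes by SMART-Seq v4 (a gap of 0.84), and for Dppa4 below the dissociated grown oocytes (1.39), with mESCs above these by less than 1 SD.

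Among the 30 later oocytes by DRaqL-SC3-seq, the genes varied together within families and in part between them. Pearson's r was 0.92 for Zscan4c with Zscan4f, 0.90 for Zscan4c with Zscan4d and 0.86 for Tcstv1 with Tcstv3. Reads of near-identical copies can be assigned to one another within these families, so that these values are not independent. Tcstv1 with Dppa2, which share no such sequence, reached 0.87, and Dppa2 with Dppa4 0.69, unlike in mESCs. The Zscan4 sum and the Tcstv sum correlated at 0.47. The Tcstv sum and the 8 oocyte markers correlated at 0.08.

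The regulators also differed by stage. Of the 12 repressors, 6 were higher by over 1 in later than in primary oocytes by DRaqL-SC3-seq, beside the 21.2% of all genes. These were Chaf1a (1.68), Chaf1b (1.08), Kdm1a (1.49), Ncl (1.08), Dnmt1 (1.73) and Daxx (1.88). Ehmt2 was lower by over 1, at 6.43 in primary and 4.89 in later oocytes. Of the 29 other 2-cell genes in the tables, 21 had more RPM in the pooled later than in the pooled primary oocytes, as did 43.4% of 20696 genes. Sp110 was at 475 RPM in pooled later and 50.8 RPM in pooled primary oocytes, and Tdpoz3 had 441 reads in later oocytes and 2 in primary ones.

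Serial sections of the same oocyte showed how far the levels repeat. The median difference between the sections of 1 oocyte, in absolute log2 (RPM+1), was 0.29 for Dppa2 and 0.51 for Tcstv1, against 0.83 and 0.63 between sections of different oocytes. For the Zscan4 sum it was 1.06 against 1.86. For Dppa4 it was 1.97 within and 1.42 between oocytes, so that Dppa4 did not repeat between sections at these counts. The largest difference within 1 oocyte was 1.88 for Dppa2, 1.27 for Tcstv1 and 3.49 for the Zscan4 sum. Over the 8 oocytes, Pearson's r between sections was 0.32 for Dppa2, 0.63 for Tcstv1, 0.30 for the Zscan4 sum and -0.39 for Dppa4.

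Single oocytes make this plain. Oocyte 3 had 212 and 166 Zscan4 reads in its sections and was high in both, and oocyte 1 had 3 and 5 and was low in both. Oocyte 4 had 70 reads in 1 section and 3 in the other, the latter in a library of 17506401 reads, and oocyte 9 had 28 and 0. The Tcstv sum was between 217 and 1887 reads in all 16 sections. Dppa4 had 46 and 1 reads in oocyte 1 and 18 and 1 in oocyte 9. Section 1 and section 2 are different parts of 1 cell, and uneven transcripts and loss of cDNA cannot be told apart.

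**Figure D4:**
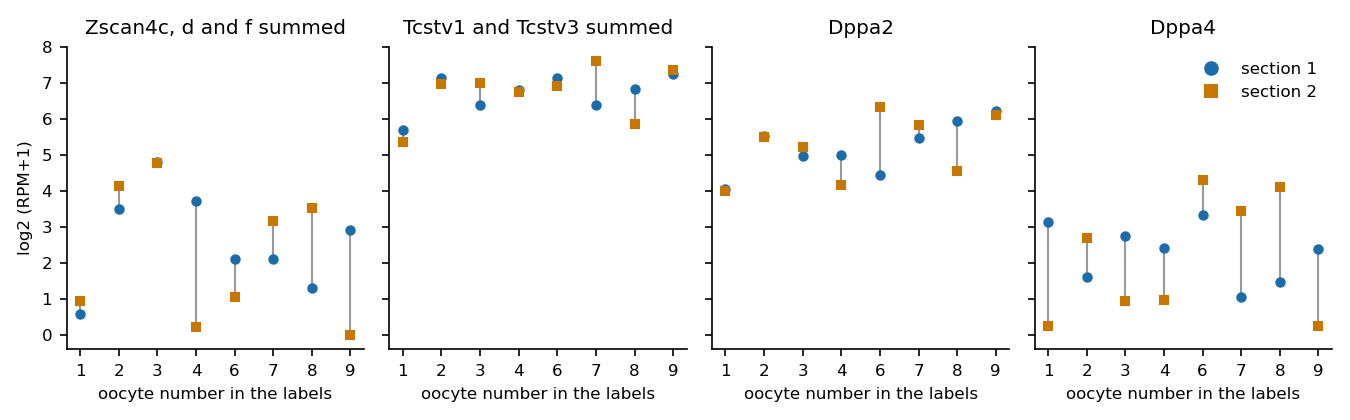
Levels in 2 serial sections of 8 oocytes, in log2 (RPM+1), with the oocyte number in the labels on the horizontal axis, section 1 as circles, section 2 as squares and a line joining the sections of 1 oocyte. The Tcstv sum lies close between sections (median difference 0.27), and Dppa4 lies far apart (1.97).

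The 5 exon libraries of later oocytes carried the same genes. They are given in the order of exon libraries 1, 5, 2, 3 and 4, and these numbers do not refer to the oocytes of the serial sections. Zscan4 reads fell on the last exon alone, with 1, 29, 9, 0 and 38 reads of Zscan4c. Zscan4d had 0, 15, 21, 0 and 31 reads, and Zscan4f 1, 35, 9, 0 and 44. The 3′ libraries they were most alike had 0, 9, 7, 0 and 17 reads of Zscan4c, so that the oocytes with and without Zscan4 were nearly the same in both. Tcstv1 had 477, 180, 134, 66 and 287 exon reads, of which 7, 0, 6, 0 and 20 reads were listed over a junction. Dppa2 had 8 to 209 exon reads, lowest in exon library 3, and Dppa4 32, 0, 2, 0 and 3. These tables kept reads that mapped to several places, so that they do not separate the copies either.

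In granulosa cells, the somatic cells that surround the oocyte, reads of the 7 genes were rare and differed between families in how they went with oocyte RNA. Of 330 single cells, 15 had at least 5 reads of Tcstv1, of which 13 were neighboring, and their 8 oocyte markers summed to a median of 2407 RPM. Over all 330 cells that median was 122 RPM. Dppa2 had at least 5 reads in 10 cells, 8 of them neighboring, with a median of 2424 RPM of oocyte markers. Oocyte marker RNA was itself higher in neighboring cells, with medians of 986 and 47.8 RPM in neighboring and non-neighboring cells by DRaqL-SC3-seq. Only the dissociated cells had the other order (90.2 and 144 RPM). Cells with Tcstv1 or Dppa2 reads thus held more oocyte RNA than all cells together, without position or protocol held equal. The part of oocyte RNA in these reads was not tested.

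Cells with Zscan4 reads were rare as well. At least 5 reads in sum were found in 13 cells, of which 8 were non-neighboring, and their oocyte markers had a median of 145 RPM. Of these 13 cells, 10 were below 500 RPM of oocyte markers and 4 had no read of any of the 8 markers, as were 233 and 29 of all 330 cells, and 2 and 0 of the 15 Tcstv1 cells. A non-neighboring cell by SMART-Seq v4 had 72 reads of Zscan4c, 0 of Zscan4d and 68 of Zscan4f among 155613 reads, with 19.3 RPM of oocyte markers. A neighboring cell by DRaqL-Smart-seq2 had 15, 38 and 5 Zscan4 reads and 129 Tcstv1 reads, and it was the only 1 with at least 5 reads of both. The Tcstv sum had at least 5 reads in 19 of the 330 cells. With so few cells of either kind, little overlap would be found without any relation between the families. The neighboring cell of mixed profile, left out here, had 12 Zscan4 reads and 6847 RPM of oocyte markers. Both non-neighboring cells of mixed profile had 0 Zscan4 reads, at 1467 and 2448 RPM of oocyte markers. Dppa4 had at least 5 reads in 9 cells, 6 of them non-neighboring, with a median of 188 RPM of oocyte markers. In libraries of 10 pooled granulosa cells or of bulk granulosa tissue, the highest value was 318 Dppa4 reads (60.2 RPM) in 1 neighboring pool. The Zscan4 sum reached 30 reads (5.10 RPM) in a neighboring pool, 19 (2.30 RPM) in a non-neighboring pool, and 20 in a bulk library, where later oocytes by DRaqL-SC3-seq had a median of 1.28 RPM. Tcstv1 had at most 12 reads, Tcstv3 at most 14 and Dppa2 at most 10 in a library.

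**Figure D5:**
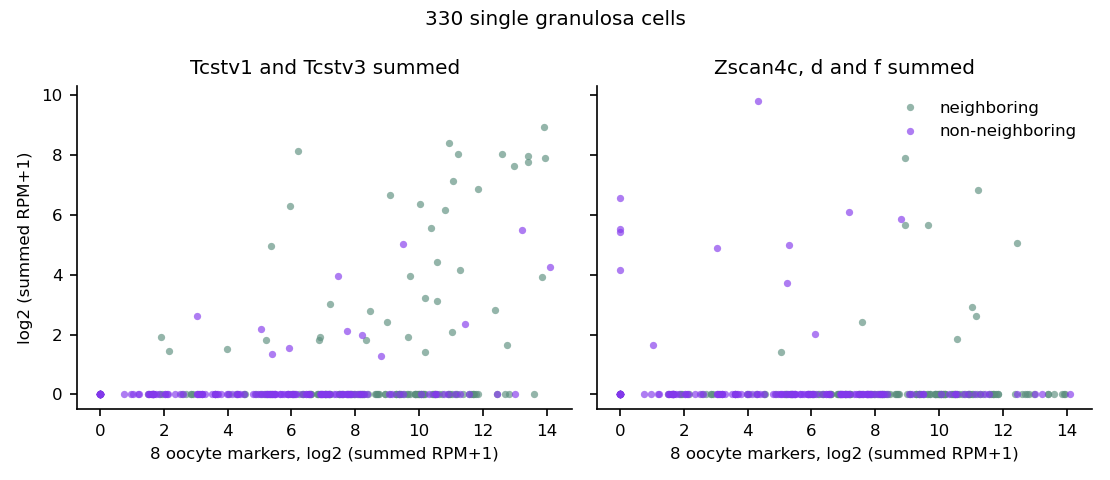
The Tcstv sum (left) and the Zscan4 sum (right) against the summed level of 8 oocyte markers in 330 single granulosa cells, both in log2 (summed RPM+1), with 1 point a cell, neighboring in green and non-neighboring in purple. Cells with Tcstv reads lie mostly at high oocyte markers, and cells with Zscan4 reads are found over the whole range, 4 of those with at least 5 reads at no oocyte marker read.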

How the data were processed

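Transcripts were counted in mESCs, oocytes and granulosa cells, as single cells, pools or bulk. The deposited values are counts of reads per gene, exon or junction, without normalization. Per the labels and the methods, the authors trimmed reads with fastp 0.20.0 and cutadapt 1.16, aligned them with HISAT2 2.1.0 to GRCm38, and counted best-matched reads within 10 kb of annotated 3′ ends with HTSeq 0.10.0, and exon and junction reads with featureCounts 2.0.1, keeping multi-mapped reads. Best-matched counting can split or drop reads of near-identical copies, so that single Zscan4 and Tcstv counts are uncertain.

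Rows were matched by symbol. Reads of a gene were scaled to the sum of protein-coding reads in the library (RPM, per 1000000) and log2-transformed with a pseudocount of 1, which understates changes of low genes. Where tables held 45905 genes, other genes took medians of 24.5 to 33.7% of reads and were left out. A gene was detectable above 0 reads, and genes with a mean difference over 1 were counted. Shares carry Clopper-Pearson 95% intervals and floors are 3 counts, for counting error only, since reads carried no molecular identifiers. Each group is 1 sample, so no test was run. Exon libraries were set beside 3′ libraries by Pearson's r across genes.

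Named genes are the 7 members, the 10 genes most correlated with the Zscan4 sum and the 5 with each of Dppa2 and Dppa4 (for Tcstv, at 0 in all mESCs, no correlation exists), and the other 2-cell genes with reads in LCM cell 12. Zfp352, Usp17la, Tdpoz1 to Tdpoz4 and some regulators and markers were named after their values were seen. The members and lists were chosen with earlier results of these data known. Software was python 3.11.15, numpy 2.4.6, pandas 2.3.3, scipy 1.17.1, biopython 1.88, matplotlib 3.10.9, R 4.3.3 and edgeR 4.0.16 (TMM and upper-quartile scaling alone), and differences were checked on simulated data. ERCC spike-in tables were not used. Alternatives were other pseudocounts, scalings, detection limits and thinned libraries. Leaving out single libraries and the alternatives for the stage comparison were added after the data were seen.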

Additional observations from a re-analysis of the deposited data

Results flagged for a closer look

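In 38 combinations of a gene and a group of 4 to 10 libraries, in which the gene had reads in over 1 in 2 libraries, 5 libraries lay apart from the rest of their group by Dixon's rule, where chance gives about 1 in 20 groups. Tcstv1 was lowest, at 1.46 in log2 (RPM+1), in 1 of the 8 secondary to antral oocytes cut for DRaqL-Smart-seq2. Dppa4 was lowest, at 0, in 1 of the 9 secondary to antral oocytes by DRaqL-SMART-Seq v4. Dppa2 was highest, at 1.38, in 1 of the 7 libraries of bulk granulosa. Among the 5 exon libraries of oocytes, Dppa2 was lowest, at 1.04, in exon library 3 (8 reads), and Dppa4 was highest, at 2.54, in exon library 1 (32 reads).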

How the results depend on the processing

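Across 86 results and 252 alternative values, 198 values stayed within 1 SD, their binomial interval or 1.5 times a count, and 54 moved further. The sign changed in 6 of 151 alternative values of 35 differences, of 3 differences of at most 0.11. These were Zscan4c and Zscan4f between LCM and fresh mESCs without LCM cell 12 (-0.01 each), and Dppa2 by stage in formalin-fixed sections with TMM scaling (-0.01), at a pseudocount of 0.1 (-0.76) and without primary oocyte 1 (-0.53) or 2 (-0.02). TMM scaling moved the number of members higher by over 1 in formalin-fixed sections from 4 to 2 and no other value, and upper-quartile scaling, leaving out 1 of the alike fresh libraries 25 and 33, and leaving out LCM cell 1 (fresh in 1 source of the study and LCM in the labels) moved none; without LCM cell 1 the Dppa2 difference was -2.59. As a log2 ratio of summed counts, the LCM to fresh difference was 5.58 for Zscan4c and 5.83 for Zscan4f (0.10 and 0.11 as means) and rests on LCM cell 12. With at least 5 reads, Dppa2 was detected in 82.2% of fresh and 36.1% of LCM cells and, in libraries thinned to 204699 reads, in 82.2% and 33.3%, and Zscan4c and Zscan4f in 0% of fresh cells both ways. Above a level of 4 instead of 6, 1 mESC was high in Zscan4. The number of genes higher by over 1 in LCM mESCs, 84, became 46 for genes with a mean of at least 4, 243 at a pseudocount of 0.1 and 7 at 10, and the number lower, 972, became 445, 2683 and 71.

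In oocytes by DRaqL-SC3-seq, a pseudocount of 0.1 gave primary means of -3.32 for Zscan4c and Zscan4f, -3.15 for Zscan4d, -1.04 for Tcstv1, -2.85 for Tcstv3, -1.19 for Dppa2 and -2.58 for Dppa4, and later means of -0.87 for Zscan4c, -0.42 for Zscan4d and -0.88 for Zscan4f; these follow from adding less to low values. At 5 reads or more, the primary share was 0% for Zscan4d, Tcstv1, Tcstv3 and Dppa4, and the later share was 26.7% for Zscan4c, 30% for Zscan4d and 50% for Dppa4. The stage differences were larger at that pseudocount for low genes, as for Zscan4c (2.45 instead of 1.03) and Tcstv3 (4.93 instead of 2.76). Thinning was run for mESCs only. No paired analysis was possible because fresh and LCM cells, or oocytes of different stages, come in no labelled pairs and no test between them was made. Sections of 1 oocyte were compared within it.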
